A study of Saccharomyces cerevisiae with 109 samples.

Results

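Steady-state mRNA was compared between cultures given 250 µM reduced glutathione (GSH), called high [GSH], and cultures given 0 µM, called low [GSH], in budding yeast (Saccharomyces cerevisiae, W303, haploid and of mating type a, written MATa). At 1 °C and at 5 °C there were 3 high [GSH] and 3 low [GSH] libraries, which makes 12 of the 109 libraries of the series, chosen by their labels and not by any measured value. Total RNA, depleted of ribosomal RNA and holding spiked-in fission yeast (Schizosaccharomyces pombe) RNA, was sequenced without enrichment for newly made RNA. The labels call the replicates biological and give no difference between the groups apart from temperature and GSH. All groups carry the auxotrophic and ade2-1 alleles of W303. Elsewhere the paper uses these names for populations that also differed in starting density, with low [GSH] the denser. The sources do not settle whether density differed between the cultures compared here, and its effect was not tested. The comparison asks whether added GSH changed the mRNA that cold cells hold.

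Glutathione is the main soluble thiol of yeast. It is made in a pair of steps from glutamate, cysteine and glycine by the products of GSH1 and GSH2, is oxidised when it reduces peroxides and protein disulfides, and is returned to the reduced form by the reductase Glr1. Cells import it from the medium through the transporter Opt1, export conjugates of it to the vacuole through Ycf1, and break it down with Ecm38 and the Dug enzymes, which returns cysteine to sulfur metabolism. The transcription factor Yap1 senses peroxides and thiol-reactive compounds and induces thioredoxin, glutathione and peroxidase genes, while Met4, with Cbf1 and Met31 or Met32, drives the genes of sulfate uptake and methionine synthesis.

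Libraries at 1 °C held 26863518 to 42970939 reads and libraries at 5 °C held 14751569 to 17746220, of which 16376996 to 28640295 and 7808724 to 9351500 fell on S. cerevisiae mRNA. Levels are given in CPM, mRNA counts scaled to the same total in every library with TMM, the trimmed mean of M values. Mating-type markers were mixed. Of the MATa genes, STE2, the alpha-factor receptor, was at 193 to 279.9 CPM, BAR1 at 37.2 to 91.9 CPM and MFA2 at 13.4 to 30.1 CPM, but the a-factor gene MFA1 was at 0.356 to 3.03 CPM. Of the MATalpha genes, MF(ALPHA)2 was at 0 to 5.65 CPM, while MF(ALPHA)1 was at 18.9 to 51.1 CPM, SAG1 at 12.0 to 53.3 CPM and STE3, the a-factor receptor, at 11.6 to 22.4 CPM in all 12 libraries. The top values of MF(ALPHA)2, MF(ALPHA)1 and SAG1 were all in low [GSH] replicate 2 at 1 °C. In the other 11 libraries these genes reached at most 1.13, 40.8 and 21.0 CPM. Low [GSH] replicate 2 at 1 °C stood apart: 1.02% of its mRNA reads fell on open reading frames that the R64 annotation does not list as protein-coding, against 0.216% to 0.257% in the other 11 libraries, and 35.6% of its S. pombe reads fell on noncoding transcripts, against 11.0% to 24.6%. HYP2, which encodes the translation factor eIF5A, and DID2, of the endosomal sorting machinery, were both at 0 CPM there and at 307 to 332 CPM and 147 to 153 CPM in the other low [GSH] libraries at 1 °C. What set this library apart was not tested.

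**Figure D1:**
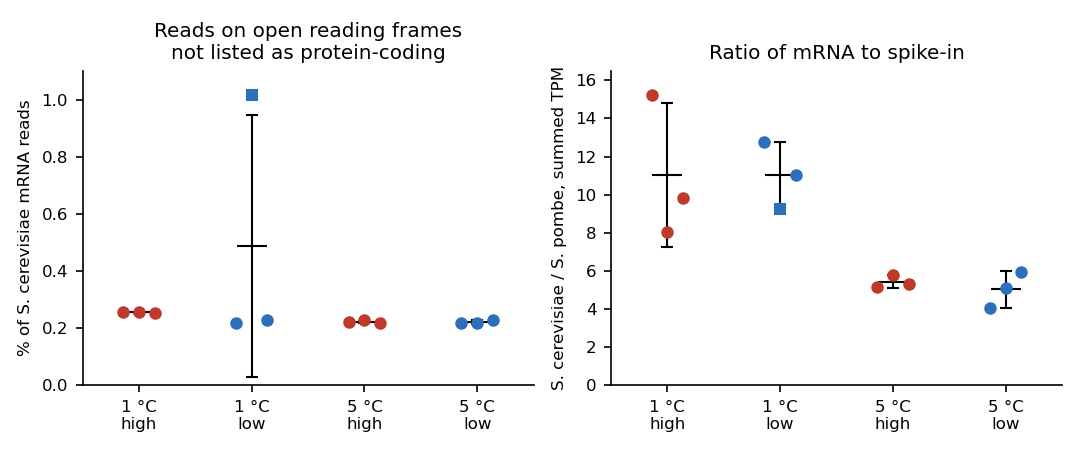
Percent of mRNA reads on open reading frames not listed as protein-coding (left) and the ratio of S. cerevisiae mRNA to S. pombe spike-in in summed TPM (right), per library. Red is high and blue is low [GSH], bars are mean ± SD (n = 3), and the square is low [GSH] replicate 2 at 1 °C, which alone lies at 1.02% while the ratio shows no separation by GSH at either temperature.

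The amount of mRNA relative to the spike-in did not separate high from low [GSH] cultures. At 1 °C the ratio of S. cerevisiae mRNA to S. pombe RNA in summed TPM, the deposited length-corrected share of transcripts, was 15.3, 8.01 and 9.83 in high [GSH] cultures, against 12.8, 9.27 and 11.0 in low [GSH] cultures. At 5 °C it was 5.14, 5.80 and 5.32 in high [GSH] cultures, against 4.02, 5.10 and 5.96 in low [GSH] cultures. The groups overlapped at both temperatures, and the high [GSH] ratios averaged 11.0 ± 3.77 and 5.42 ± 0.339, against 11.0 ± 1.75 and 5.03 ± 0.970 in low [GSH] (SD, n = 3 each). The mean log2 difference over both temperatures was 0.04 (two-sided exact permutation test within temperature, p = 0.805, 400 relabellings), with -0.04 at 1 °C (exact p = 1) and 0.13 at 5 °C (exact p = 0.6), where 3 against 3 cannot give a p below 0.1. In such bulk samples fewer cells and less mRNA per cell cannot be told apart.

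No gene passed the test for added GSH. With edgeR's quasi-likelihood test and Benjamini-Hochberg adjustment at 0.05, 0 of 6000 genes (0%) were called at 1 °C, 0 at 5 °C, 0 over both temperatures and 0 for the difference between the temperatures. The smallest adjusted p values were 0.217, 0.998, 0.751 and 0.976, and unadjusted p fell below 0.05 for 625 genes (10.4%), 110 genes (1.83%), 365 genes (6.08%) and 179 genes (2.98%), each in that order. At 1 °C 4.03% of all genes had such a p on the higher and 6.38% on the lower side of high [GSH], and at 5 °C 1.1% and 0.733%. All 4 groups shared the fit, so low [GSH] replicate 2 at 1 °C also entered the spread used at 5 °C. HYP2 had an SE of 0.92 at 5 °C, where it was at 360 to 409 CPM. At 5 °C the share with such a p was 3.21% with only the 6 libraries of that temperature. It was 2.88% without that replicate, and both settings called 0 genes. DESeq2 called 7 genes at 1 °C, 0 at 5 °C, 1 over both temperatures and 0 for the difference. The samples of the groups did not overlap for 669 genes (11.2%) at 1 °C and 470 (7.83%) at 5 °C, with 5.27% higher and 5.88% lower in high [GSH] at 1 °C, and 4.62% and 3.22% at 5 °C. High [GSH] was above low [GSH] without overlap at both temperatures for 27 genes (0.45%), below it at both for 7 (0.117%), and on opposite sides for 15 (0.25%).

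The intervals bound how large a difference could have been for most genes. Of the 5308 genes with a mean of at least 10 CPM, the 95% interval of the difference lay within 2-fold for 98.3% at 1 °C and 99.1% at 5 °C, and within 1.5-fold for 93.0% and 94.8%. Over all 6000 genes the share within 2-fold was 89.8% at 1 °C and 90.5% at 5 °C. The median size of the log2 difference was 0.09 at 1 °C and 0.06 at 5 °C. Low [GSH] cultures at 1 °C differed from those at 5 °C by a median of 0.40, and by more than 2-fold in 914 genes. That yardstick comes from means of log2 CPM, includes low [GSH] replicate 2 at 1 °C, and is given without a test. Across the 5308 genes the differences at the 2 temperatures, which share no library, had a Pearson r of 0.12 and a Spearman rho of 0.15, and 0.18 and 0.20 without low [GSH] replicate 2 at 1 °C, where genes are not independent replicates. Differences also ran with coding length across genes, with a Spearman rho of -0.07 at 1 °C, -0.28 there without that library, and -0.09 at 5 °C.

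Low [GSH] replicate 2 set most of the large differences at 1 °C. Of 241 genes that differed more than 2-fold there, 225 were lower in high [GSH], all 225 had their highest value in that library, and 170 were not listed as protein-coding. Without it 18 genes differed more than 2-fold, 17 of them higher in high [GSH], and 275 of 5935 genes (4.63%) had an unadjusted p below 0.05. SUL1, a high-affinity sulfate permease, was at 2.11, 3.51 and 3.07 CPM in high [GSH] cultures, against 2.39, 56.6 and 3.49 CPM in low [GSH] cultures at 1 °C, where the groups overlapped. Its log2 difference was -2.85 with that library and -0.02 without it. TIR3, a cell wall mannoprotein, had 1.26, 1.61 and 1.83 CPM in high [GSH], against 1.18, 22.0 and 1.75 CPM in low [GSH], and its difference was -2.40 with and 0.11 without the library. SMK1, a mitogen-activated protein kinase of sporulation, likewise had -2.52 and 0.12. With library sizes from S. pombe reads edgeR called 75 genes at 1 °C, SUL1, TIR3 and SMK1 among them, and 73 of the 75 had their highest value in that library.

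**Figure D2:**
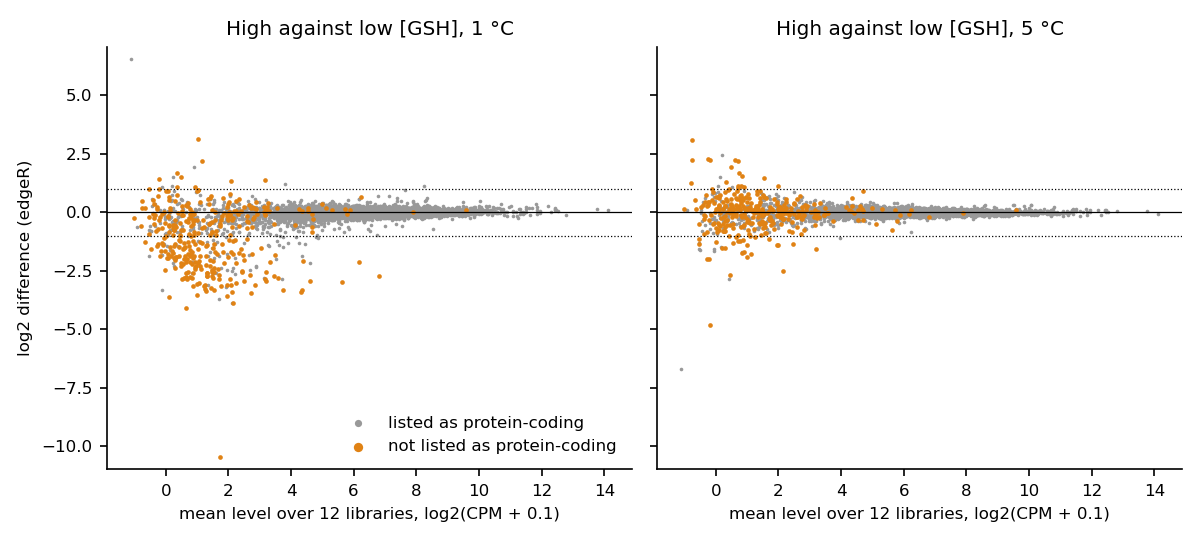
Log2 difference of each of 6000 genes, high against low [GSH], by its mean level over 12 libraries at 1 °C (left) and 5 °C (right); orange points are open reading frames not listed as protein-coding and dotted lines mark 2-fold. At 1 °C 225 of the 241 genes beyond 2-fold lie below 0, and at 5 °C the cloud is narrower, with 61 genes beyond 2-fold.

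Among genes with a standard symbol, those with the smallest p at 1 °C were 3 that were higher and 2 that were lower in high [GSH]. None was past the adjusted threshold. HNT1, which encodes an enzyme of the HIT family of nucleotide hydrolases (chromosome IV, 239019 to 239606, R64), was at 344, 365 and 337 CPM in high [GSH] cultures, against 278, 257 and 285 CPM in low [GSH] cultures. Every high [GSH] value lay above every low [GSH] value, with a log2 difference of 0.35 (SE 0.0571, 95% interval 0.23 to 0.47, edgeR adjusted p = 0.217). At 5 °C it was at 175, 187 and 172 CPM in high [GSH], against 181, 183 and 179.9 CPM in low [GSH], groups that overlapped, with a difference of -0.03. EGO4 (chromosome XIV, 692561 to 692857) had 282, 326 and 334 CPM in high [GSH] cultures at 1 °C, against 207, 236 and 237 CPM in low [GSH] cultures. These did not overlap, and its difference was 0.47 (SE 0.0875, edgeR adjusted p = 0.251), against 0.04 at 5 °C.

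ALD3, a stress-induced aldehyde dehydrogenase (chromosome XIII, 599352 to 600872), showed 282, 374 and 322 CPM in high [GSH] cultures at 1 °C, against 253, 223 and 218 CPM in low [GSH] cultures. High [GSH] was above low [GSH] in every sample, with a difference of 0.49 (SE 0.0918, edgeR adjusted p = 0.251), and at 5 °C the difference was -0.06 with overlapping groups. On the lower side were a pair of genes of ribosome assembly. GAR1, a core protein of the H/ACA particles that pseudouridylate ribosomal RNA (chromosome VIII, 282681 to 283298), was at 88.3, 91.4 and 86.2 CPM in high [GSH], against 106, 118 and 106 CPM in low [GSH] at 1 °C. The groups did not overlap, and the difference was -0.31 (edgeR adjusted p = 0.422). At 5 °C GAR1 had 58.8, 53.0 and 58.0 CPM in high [GSH], against 59.4, 61.4 and 65.1 CPM in low [GSH], again without overlap and with a difference of -0.13. LTV1, which acts in the assembly and export of the small ribosomal subunit, was at 81.4, 73.7 and 79.7 CPM in high [GSH], against 94.9, 97.7 and 95.3 CPM in low [GSH] at 1 °C, a difference of -0.29 without overlap that stood at 0.06 at 5 °C.

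DESeq2 called HNT1, EGO4, ALD3, GAR1 and 3 further genes at 1 °C, all higher in high [GSH] except GAR1. ARN2, a transporter of iron-loaded siderophores, was at 287, 351 and 300.1 CPM in high [GSH], against 267, 228 and 238 CPM in low [GSH]. Its groups did not overlap, with a difference of 0.36 (DESeq2 adjusted p = 0.0381, edgeR adjusted p = 0.461), and at 5 °C they did not overlap either, at 242, 276 and 254 CPM in high [GSH] and 235, 233 and 234 CPM in low [GSH]. RCN2, a regulator of calcineurin, had a difference of 0.31 at 1 °C (DESeq2 adjusted p = 0.0357) and 0.00 at 5 °C. YFR052C-A, an open reading frame not listed in the annotation used here, had a difference of 0.64 at 1 °C (DESeq2 adjusted p = 0.0361). Without low [GSH] replicate 2 DESeq2 called 4 genes at 1 °C, namely HNT1, EGO4, ALD3 and the unlisted YKL153W, and with protein-coding genes only it called HNT1, EGO4, ALD3, ARN2 and RCN2. RCN2, YFR052C-A and YKL153W were named after their values were seen.

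At 5 °C the 5 with the smallest p among genes with a standard symbol were BTS1, HIS1 and EUG1 on the higher side and HEM12 and KEL3 on the lower side. All were at an edgeR adjusted p of 0.998. BTS1, which makes geranylgeranyl diphosphate for protein prenylation, had 33.6, 37.2 and 33.8 CPM in high [GSH], against 25.9, 27.9 and 24.5 CPM in low [GSH]. The groups did not overlap and the difference was 0.42 (95% interval 0.21 to 0.63), while at 1 °C it was -0.08. HIS1, which encodes the first enzyme of histidine synthesis, differed by 0.24, EUG1, a disulfide isomerase homolog of the endoplasmic reticulum, by 0.21, and HEM12, an enzyme of heme synthesis, by -0.28. At 1 °C they differed by 0.00, -0.09 and -0.07, and the difference between temperatures passed for none of them.

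Over both temperatures DESeq2 called 1 gene, TDH1, an isozyme of the glycolytic enzyme glyceraldehyde-3-phosphate dehydrogenase, which edgeR did not call. It was at 539, 561 and 503 CPM in high [GSH] cultures, against 455, 319.6 and 421 CPM in low [GSH] cultures at 1 °C. At 5 °C it was at 1063, 1143 and 987 CPM in high [GSH] cultures, against 759.7, 921 and 865 CPM in low [GSH] cultures. High [GSH] was above low [GSH] without overlap at both temperatures, with differences of 0.42 and 0.33 and a mean of 0.37 (edgeR adjusted p = 0.751, DESeq2 adjusted p = 0.0226). Without low [GSH] replicate 2 the difference at 1 °C was 0.29. The other TDH genes share much of its sequence, so reads between them may be split with error.

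Other genes named for a small p over both temperatures differed less. PHM8, a nucleotidase induced by phosphate limitation, had 154, 169.5 and 159 CPM in high [GSH], against 137, 135 and 137 CPM in low [GSH] at 1 °C, and its differences were 0.24 at 1 °C and 0.23 at 5 °C. VAB2, a subunit of the BLOC-1 complex, differed by 0.28 and 0.20, and HXT1, a low-affinity glucose transporter, by 0.28 and 0.33. HSP30, which encodes a stress-induced plasma membrane protein, varied more, at 40.4, 98.9 and 63.2 CPM in high [GSH] and 39.9, 29.7 and 23.4 CPM in low [GSH] at 1 °C, with no overlap and a difference of 1.11 (SE 0.281, 95% interval 0.50 to 1.72). At 5 °C its groups overlapped, at 620.4, 683 and 517 CPM in high [GSH] and 515, 619 and 388 CPM in low [GSH], though each same-numbered pair was higher in high [GSH].

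**Figure D3:**
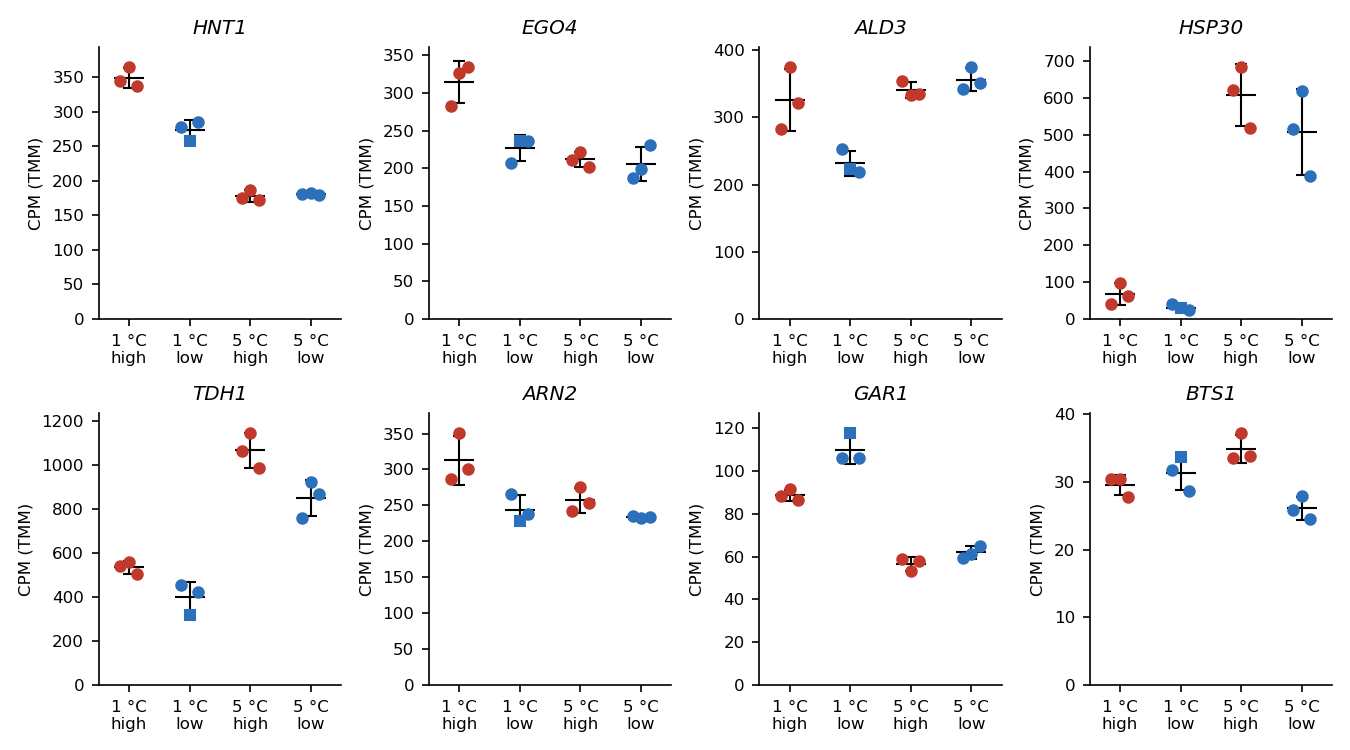
CPM after TMM scaling of 8 genes in each library (red high, blue low [GSH]; square, low [GSH] replicate 2 at 1 °C; bars, mean ± SD, n = 3). HNT1, EGO4 and ALD3 separate the groups at 1 °C and overlap at 5 °C, BTS1 separates them only at 5 °C, and TDH1, ARN2 and GAR1 show the same side at both temperatures.

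For the genes of glutathione metabolism itself the differences between high and low [GSH] were small and none passed the test. GSH1, which encodes the rate-limiting gamma-glutamylcysteine synthetase, was at 217, 208 and 225 CPM in high [GSH] cultures, against 217, 213 and 232 CPM in low [GSH] cultures at 1 °C. At 5 °C it was at 301, 311 and 294 CPM in high [GSH] cultures, against 286, 307 and 286 CPM in low [GSH] cultures. The groups overlapped at both temperatures, with differences of -0.03 (95% interval -0.15 to 0.10) and 0.04 (-0.08 to 0.17). GSH2 had differences of 0.11 and -0.03, the reductase gene GLR1 0.06 and -0.01, and YAP1 -0.02 and 0.01. In the list of glutathione synthesis and regulators, 0 of 7 genes were called, and 1, YBP1, which helps activate Yap1, had an unadjusted p below 0.05, at 1 °C, against 10.4% of all genes, with a difference of -0.19 there and 0.05 at 5 °C. Without low [GSH] replicate 2 no member of that list had such a p at 1 °C, and the difference of YBP1 was -0.09.

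Import and breakdown genes had differences of similar size. OPT1, the importer of glutathione, was at 55.0, 56.2 and 54.5 CPM in high [GSH], against 54.8, 67.6 and 55.9 CPM in low [GSH] at 1 °C, overlapping groups whose top value was in replicate 2 of low [GSH]. At 5 °C it was at 100.4, 103 and 92.3 CPM in high [GSH], against 88.7, 92.6 and 87.7 CPM in low [GSH], again overlapping, with a difference of 0.13. DUG2, a subunit of the cytosolic glutathione-degrading complex, differed by -0.15 at both temperatures. YCF1 differed by -0.08 and 0.00 and ECM38 by 0.03 and 0.00. None of the 11 members was called, and for all 18 genes of both lists the 95% interval lay within 2-fold at both temperatures.

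Genes that depend on glutathione or thioredoxin were also not called. TRX1, a cytosolic thioredoxin, was at 163, 151 and 155 CPM in high [GSH], against 130.3, 118 and 142 CPM in low [GSH] at 1 °C, without overlap and with a difference of 0.26 (edgeR adjusted p = 0.461). At 5 °C the difference was 0.02. Of 13 thioredoxin and peroxiredoxin genes, 12 were above 0 at 1 °C with a median of 0.14, and 9 at 5 °C with a median of 0.02, where 46.8% and 51.2% of all genes were above 0. At 1 °C the median of the thioredoxins and peroxiredoxins was 0.10 without low [GSH] replicate 2 and 0.11 with the trend on coding length removed. Among 17 glutaredoxin and glutathione transferase genes the medians were 0.04 and 0.03, with GRX2, the main cytosolic dithiol glutaredoxin, at 0.08 and -0.05 and GTT2, a transferase, at 0.19 (0.05 without low [GSH] replicate 2) and 0.04. The 9 genes of catalases, superoxide dismutases and glutathione peroxidases had medians of 0.02 and -0.01, and CTT1, the cytosolic catalase, stood at 0.13 and 0.00.

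The 38 genes of sulfur assimilation and methionine had a median difference of -0.08 at 1 °C, with 29 below 0, and 0.06 at 5 °C, with 27 above 0. Without low [GSH] replicate 2 the median at 1 °C was -0.05, with 25 below 0. None was called in either comparison or for the difference between temperatures, and 4 had an unadjusted p below 0.05 on the lower side at 1 °C, against 6.38% of all genes, and 2 without that library. SUL1, SUL2, a second sulfate permease, and MET2, which acetylates homoserine, were among these, and without low [GSH] replicate 2 these differences were -0.02, -0.03 and -0.19, against -2.85, -0.71 and -0.69 with it. CYS4, which makes cystathionine, was at 331, 279 and 326 CPM in high [GSH], against 347, 329 and 376 CPM in low [GSH] at 1 °C, where the groups overlapped. MET16, of sulfate reduction, differed by -0.03 and 0.12, and MUP1, the methionine permease, by -0.12 and 0.09. Sulfur genes varied within groups too: SAM1, an S-adenosylmethionine synthetase, was at 134, 68.0 and 102 CPM in high [GSH], against 135, 94.8 and 157 CPM in low [GSH] at 1 °C.

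**Figure D4:**
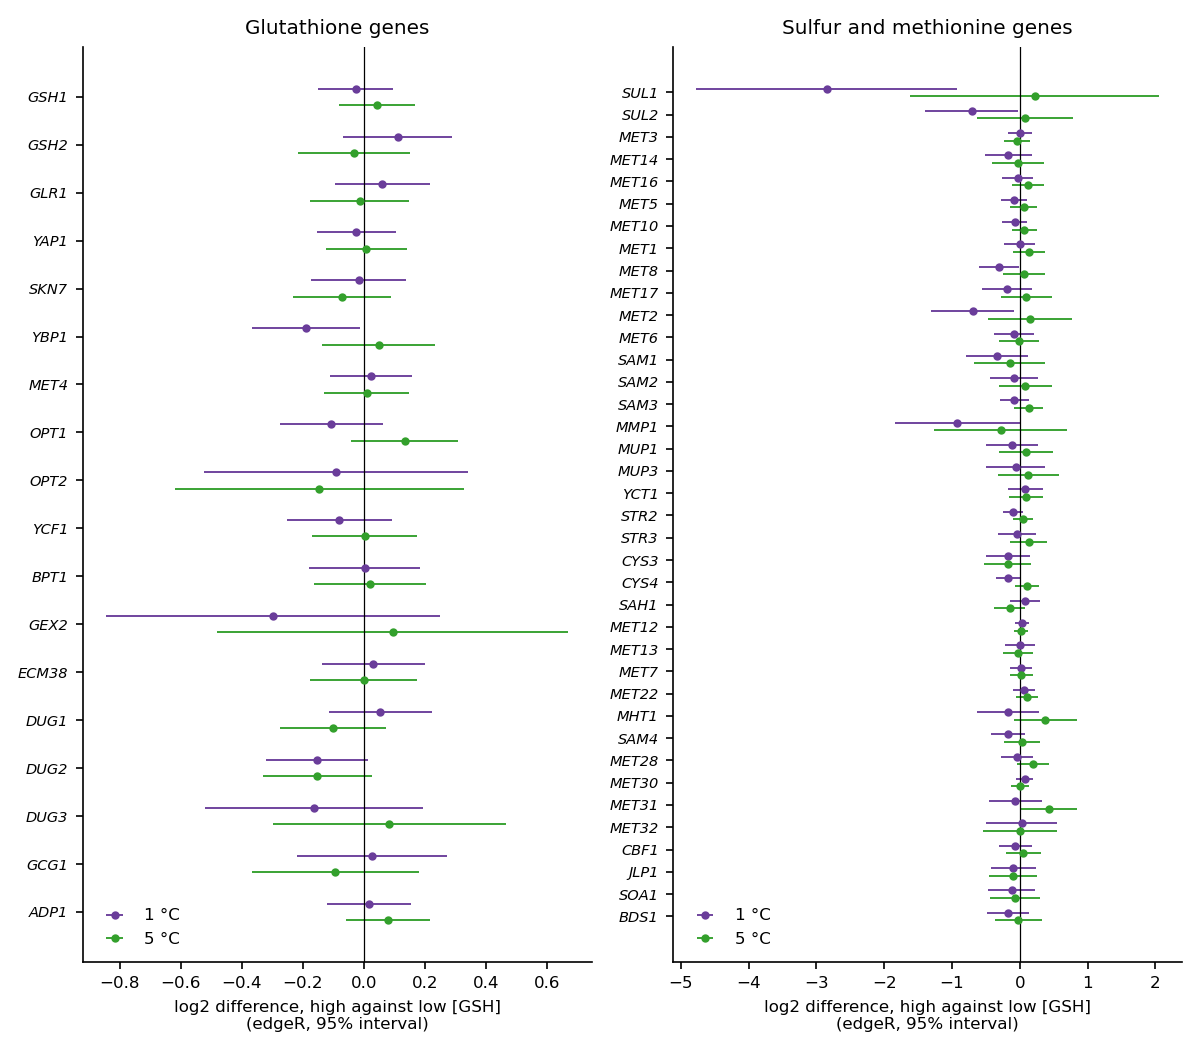
Log2 difference with 95% interval for each glutathione gene (left) and sulfur or methionine gene (right), high against low [GSH], at 1 °C (purple) and 5 °C (green). All 18 glutathione intervals stay within 2-fold, and the wide interval of SUL1 at 1 °C rests on low [GSH] replicate 2.

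Short windows from 500 bases upstream of the start codon show which binding elements these genes carry, since the factors that read glutathione, sulfur, iron and stress state act through them. Capitals mark the element, with CACGTG for Cbf1, TTACTAA for Yap1, which reads TTAGTAA on the other strand, TGCACCC for Aft1 and AGGGG for Msn2 and Msn4, each searched on both strands and printed 5′ to 3′ on the gene's strand (R64). The windows are those of GSH1 at chrX:236446-236475 (minus), MET16 at chrXVI:877793-877822 (minus), GLR1 at chrXVI:375300-375329 (plus), ARN2 at chrVIII:10642-10671 (minus), FRE2, a ferric reductase, at chrXI:11638-11667 (minus) and ALD3 at chrXIII:601094-601123 (minus).
GSH1: gttggatctttcCACGTGgtctcgagtcac
MET16: ttatcatcatttCACGTGgctagtaaaaga
GLR1: tttgacgtcacTTAGTAAgcacgacccttg
ARN2: aatcagaaaatGGGTGCAgttcttagttca
FRE2: ttattcgtaatTGCACCCaggtcttttttg
ALD3: ttgttgatcagcCCCCTtcttaagctgatt

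Medians lay near 0 for genes with such elements and for the other genes, with small differences between them. CACGTG was present upstream of 6.22% of 5659 genes and of 21 of the 38 sulfur genes (55.3%), and the carriers' median difference was 0.00 at 1 °C and 0.01 at 5 °C. The Yap1 element was upstream of 12.0% of genes, with carrier medians of 0.00 and 0.01. TGCACCC was upstream of 2.37% of genes and of 22 of 33 iron uptake genes (66.7%), with carrier medians of 0.01 and 0.04, against -0.01 and 0.00 for the other genes. The iron list itself had medians of -0.01 (0.05 without low [GSH] replicate 2) and 0.06. AGGGG was upstream of 34.6% of genes, with 0.01 at 1 °C for carriers and -0.02 for the other genes. At 1 °C 113 of the 1959 carriers had an unadjusted edgeR p below 0.05 on the higher and 81 on the lower side. Among the rest of the 5659 genes these counts were 125 and 201. Of all 6000 genes 4.03% and 6.38% had such a p on these sides. Counts without low [GSH] replicate 2 were not made for carriers. A match is a description of the letters and no evidence of binding.

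With TMM scaling the lists of ribosome biogenesis, of G1 to S transition and DNA replication and of mitosis had medians below 0 and heat shock proteins above 0 at both temperatures, with 0 genes called in each, and all but 2 of these negative medians turned positive with S. pombe library sizes. With library sizes from S. pombe reads the median of all genes stood at 0.08 at 1 °C and 0.12 at 5 °C, so list medians are best read relative to it. Other lists also lay below 0 at both temperatures with TMM scaling. The cell wall list had 27 of 38 genes below 0 at 1 °C and 30 at 5 °C, with 0 called. Its medians were -0.13 (-0.04 without low [GSH] replicate 2) and -0.07. Over all settings its median relative to all genes was -0.15 to -0.04 at 1 °C and -0.14 to -0.02 at 5 °C. The list of ribosome biogenesis, the factors that build ribosomal subunits, had 88 of 104 genes below 0 at 1 °C with a median of -0.09, and 79 of 104 at 5 °C with a median of -0.04, which with S. pombe library sizes stood at -0.02 and 0.08 and so below the median of all genes. At 1 °C 19 of them had an unadjusted p below 0.05, all lower in high [GSH] (12 without low [GSH] replicate 2), against 6.38% of all genes on that side, and 29 were lower without overlap, against 5.88% of all genes. At 5 °C only 3 of the list's 104 genes had such a p, all lower, against 0.733% of all genes on that side. There 5 were lower without overlap, against 3.22% of all genes. Its summed level was 17173, 18076 and 18189 CPM in high [GSH] cultures, against 18573, 19056 and 19955 CPM in low [GSH] cultures at 1 °C, so those groups did not overlap, while at 5 °C 12292, 11807 and 12928 CPM in high [GSH] and 12661, 12024 and 13835 CPM in low [GSH] did. Taken by replicate number, which may not pair cultures, high [GSH] lay below low [GSH] in each pair at both temperatures. Without low [GSH] replicate 2, 98 of 104 genes were below 0 at 1 °C, a setting where differences ran with coding length (Spearman rho -0.28). Over all settings, removal of the length trend among them, the list median relative to all genes was -0.10 to -0.07 at 1 °C. At 5 °C it was -0.08 to -0.02. SPB1, a methyltransferase of the large subunit, had 145, 159.9 and 151 CPM in high [GSH], against 179.8, 201 and 175 CPM in low [GSH] at 1 °C, with no overlap and a difference of -0.29, against -0.13 at 5 °C. The cytosolic ribosomal proteins, whose copies share reads, had medians of 0.01 and 0.00 for the large subunit and 0.04 and 0.02 for the small, and without low [GSH] replicate 2 those at 1 °C were -0.02 and 0.00.

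Cell cycle lists had medians below 0 as well with TMM scaling, of which only that of mitosis at 1 °C stayed below 0 with S. pombe library sizes. In the list of G1 to S transition and DNA replication, 28 of 36 genes were below 0 at 1 °C and 31 at 5 °C, both with a median of -0.09. With S. pombe library sizes these medians turned to 0.01 and 0.02, still below the median of all genes. Over all settings, removal of the length trend among them, they were -0.11 to -0.04 and -0.13 to -0.04 relative to all genes. RFA1, a subunit of replication protein A, was at 165, 141 and 161 CPM in high [GSH], against 185, 173 and 179.6 CPM in low [GSH] at 1 °C, with no overlap, and differed by -0.20 and -0.10. MCM2, of the replicative helicase, differed by -0.15 and -0.09. WHI5, the inhibitor of the G1 to S transition, was at 13.1, 12.8 and 9.32 CPM in high [GSH] and 12.7, 14.8 and 12.9 CPM in low [GSH] at 1 °C, overlapping groups with a difference of -0.20 (95% interval -0.57 to 0.17). Mitosis and cell separation genes had medians of -0.11 and -0.09, with 20 of 28 below 0 at each temperature, and with S. pombe library sizes -0.03 and 0.04. Relative to all genes they ranged over all settings from -0.17 to -0.06 and from -0.13 to -0.01. CDC5, the polo kinase, was at 83.7, 87.9 and 93.5 CPM in high [GSH] and 92.1, 114 and 121 CPM in low [GSH] at 1 °C, overlapping groups with a difference of -0.30. Each same-numbered pair was lower in high [GSH]. The 10 histone genes, whose copies share reads, had a median of 0.15 at 1 °C, with 7 above 0 and 3 at an unadjusted p below 0.05 on the higher side, against 4.03% of all genes, and a median of 0.01 at 5 °C. Without low [GSH] replicate 2 the median at 1 °C was 0.05, with 6 above 0 and none at such a p. HHT2, a histone H3 gene, differed by 0.26 at 1 °C (0.17 without that library), and HTB1 and HTB2, the histone H2B genes, by -0.05 and -0.01.

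Heat shock protein genes lay on the other side, with 23 of 30 above 0 at each temperature and medians of 0.09 and 0.10. SSA4, a stress-inducible HSP70, was at 693, 738 and 725 CPM in high [GSH] and 677, 606 and 548 CPM in low [GSH] at 1 °C, with a difference of 0.24 and no overlap. At 5 °C it was at 1419, 1933 and 1607 CPM in high [GSH] and 1183, 1547 and 1238 CPM in low [GSH], with overlap and a difference of 0.32. Taken by replicate number, each pair there was higher in high [GSH]. The stress regulator genes MSN2 and MSN4 differed by 0.00 and 0.05 at 1 °C and by -0.11 and 0.03 at 5 °C. Trehalose and glycogen genes had 15 of 18 above 0 at 1 °C, with a median of 0.08, and 15 of 18 below 0 at 5 °C, with a median of -0.05, and the difference between temperatures passed for none. The 9 cold-shock mannoprotein genes had a median of -0.19 at 1 °C, which was 0.11 without low [GSH] replicate 2, and -0.28 at 5 °C with 0 of 9 above 0.

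**Figure D5:**
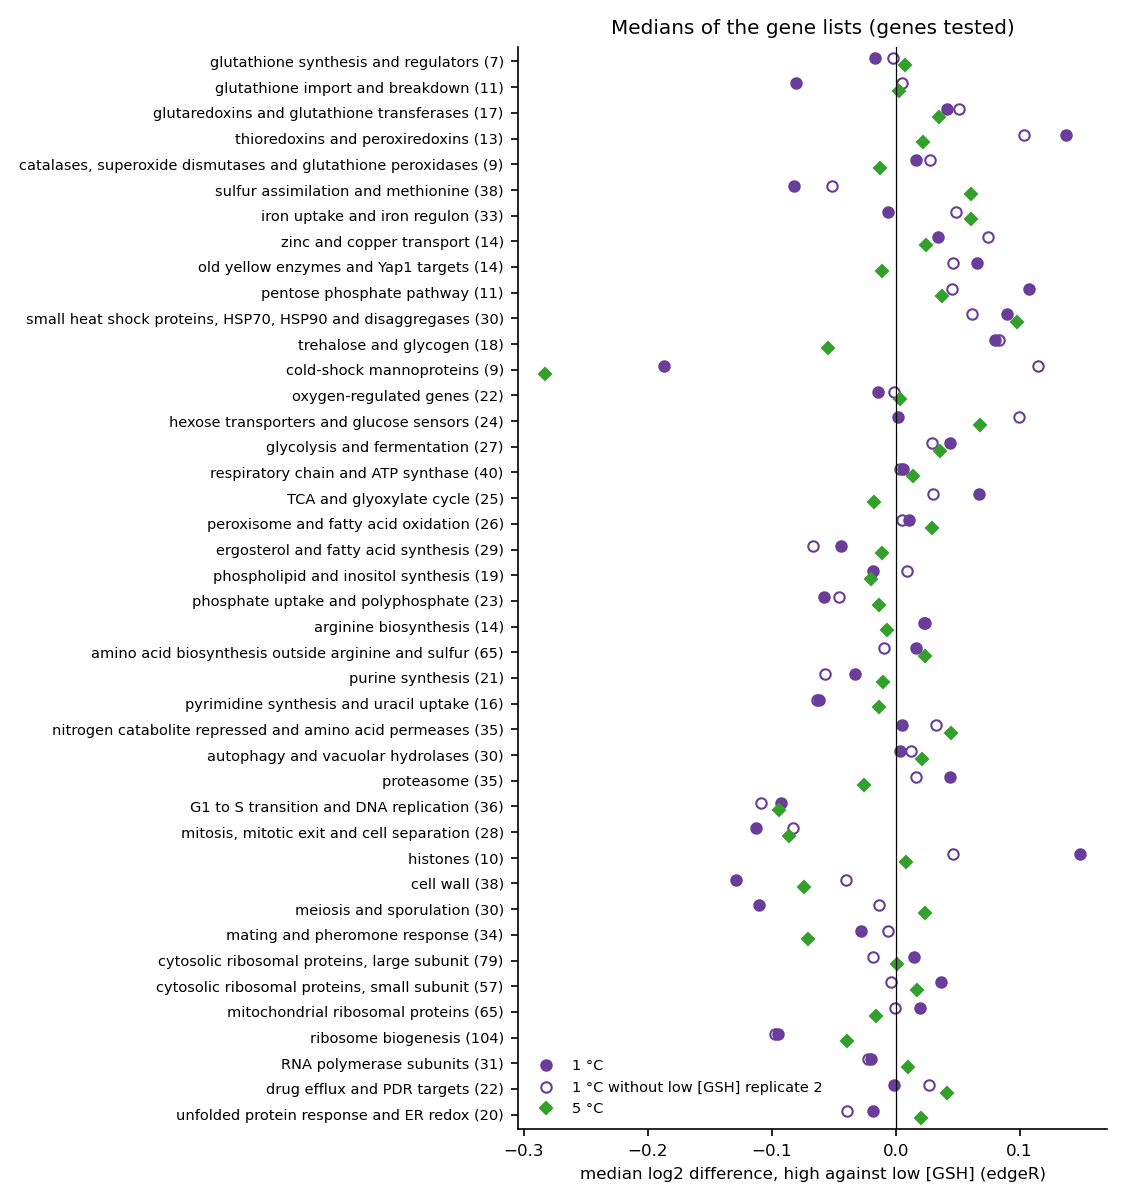
Median log2 difference, high against low [GSH], of 42 gene lists with the number of genes tested, at 1 °C (filled circles), at 1 °C without low [GSH] replicate 2 (open circles) and at 5 °C (diamonds). Most medians lie within 0.1 of 0. With TMM scaling ribosome biogenesis and cell cycle lists lie below 0 and heat shock proteins above 0 at both temperatures. With S. pombe library sizes these negative medians turn positive, except those of ribosome biogenesis and mitosis at 1 °C. The cell wall list, among others, also lies below 0 at both temperatures with TMM scaling. At 1 °C the mannoprotein list changes side without low [GSH] replicate 2.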

How the data were processed

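Steady-state mRNA was measured in 12 libraries, 3 per GSH and temperature group, taken from the labels. The authors quantified reads with Salmon against transcripts of both yeasts, and the submitters' processing notes name build R64. They deposited estimated counts per transcript, which need not be whole, and the authors' TPM values beside them, which are relative to the transcripts of both yeasts. Coding lengths, without untranslated regions, were quantified.

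Of 6532 S. cerevisiae rows with a Y locus tag, 5876 were listed as protein-coding in R64. After rounding, the expected counts entered edgeR 4.0.16 in R 4.3.3 (quasi-likelihood, TMM, filterByExpr, 12 libraries in 1 fit of 4 groups, no replicate term). This left 6000 genes, 340 of them not listed as protein-coding, and TMM centres the trimmed bulk of genes on no difference, so a shift shared by most genes is not seen. P-values were Benjamini-Hochberg adjusted over all genes with a threshold of 0.05, and intervals are 95%. DESeq2 1.42.0, other scalings, filters, gene sets and each library left out were alternatives. Over all genes, deviations of same-numbered libraries from group means correlated weakly (-0.04 to 0.10 over 6 pairs). The main test therefore took no pairs, and overlap of groups was judged without the numbers. The order within same-numbered pairs is printed for a few genes and lists only, as description. Summed levels of some lists did run in the same order by number. Those of ergosterol and fatty acid synthesis at 1 °C were 10362, 12223 and 13961 CPM in low and 10048, 10957 and 13032 CPM in high [GSH]. Those of glutathione synthesis and regulators ran in opposite orders there. Spike-in ratios were compared with an exact permutation test (Python 3.11.15, scipy 1.17.1, numpy 2.4.6, pandas 2.3.3).

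Libraries of a group were compared with each other and 0 were identical. No sequencing batch is given in the sources used here. Named genes are the 5 with the smallest p per comparison among genes with a standard symbol, since none passed. Added were the members of the glutathione and sulfur lists, 2 genes of each other list, genes the study names, and those DESeq2 called. Members and lists were chosen with earlier results of these data known. Of 1251 list entries in 44 lists, 5 had no match. For a named gene, a change of sign between settings was counted only where a value passed the test. Promoters were 500 bases upstream of the start codon of 5659 genes, 99.9% of them followed by ATG.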

Additional observations from a re-analysis of the deposited data

How the results depend on the processing

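Of 99 alternative counts over the 4 comparisons, 90 were 0, including 48 of 48 that left out 1 library, for which the count of genes was 0 at its lowest and 0 at its highest. DESeq2 called 7 genes at 1 °C and 1 over both temperatures, 4 and 1 without low [GSH] replicate 2 at 1 °C, and 5 and 1 among annotated protein-coding genes, the combined settings being chosen after seeing the data. With library sizes from S. pombe reads edgeR called 75 genes at 1 °C, 11 over both temperatures and 11 for the difference between temperatures. Of the 75, 73 were lower in high [GSH] and highest in low [GSH] replicate 2 at 1 °C, and 55 were not listed as protein-coding. Leaving out 1 library moved the number of genes with an unadjusted p below 0.05 between 275 and 1136 at 1 °C, where 275 is without low [GSH] replicate 2 and 1136 without low [GSH] replicate 1, and the smallest adjusted p between 0.0521 and 0.71. At 5 °C the number ranged from 52 to 194. The replicate block called 0 genes in each comparison, with 780 genes at an unadjusted p below 0.05 at 1 °C, 227 at 5 °C and 619 over both temperatures, and for the spike-in ratio it gave 0.04 (exact sign-flip permutation p = 0.656). Without the block 625, 110 and 365 genes had such a p. The smallest edgeR adjusted p over both temperatures was 0.274 with the block and 0.751 without it. Over all genes the same-numbered libraries correlated at 0.08, 0.00 and 0.07 at 1 °C and at 0.02, 0.10 and -0.04 at 5 °C. These values do not settle whether the numbers pair cultures. The log2 spike-in difference of 0.04 ranged from -0.087 to 0.145 when 1 library was left out, with -0.02 without low [GSH] replicate 2 at 1 °C, -0.087 without high [GSH] replicate 1 at 1 °C and -0.03 without low [GSH] replicate 1 at 5 °C. For YKL153W the difference at 1 °C turned to 0.68 with DESeq2 without low [GSH] replicate 2. Of 2244 list medians under alternatives, 17 moved by more than the spread between replicates. Other causes of these changes were not tested. Genes under 10 CPM had wider intervals, so at this depth small differences in them were not detectable.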

Other observations

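A few values stand outside the comparisons above. YBR219C, an open reading frame without a symbol, was at 0, 1.11 and 0.986 CPM in high [GSH] and 0 CPM in each low [GSH] culture at 1 °C, whereas at 5 °C it was at 0 CPM in each high [GSH] culture and at 0.617, 1.17 and 0.471 CPM in low [GSH]. YCR087C-A was at 0 CPM in low [GSH] replicate 2 at 1 °C and at 25.9 and 23.6 CPM in the other low [GSH] libraries there. BAR1, the protease of MATa cells that degrades alpha-factor, was at 49.4, 37.2 and 52.3 CPM in high [GSH], against 69.1, 53.6 and 62.5 CPM in low [GSH] at 5 °C, groups that did not overlap, with a log2 difference of -0.41 (edgeR adjusted p = 0.998), and its difference at 1 °C was 0.20. Of the 7 MATa-specific genes, 7 were above 0 at 1 °C (6 without low [GSH] replicate 2) and 7 below 0 at 5 °C, and none was called. The 35 proteasome genes had 27 above 0 at 1 °C, with a median of 0.04 (23 and 0.02 without that library), and 27 below 0 at 5 °C, with a median of -0.03.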
